A study of Homo sapiens with 6 samples.

Results

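The 10 genes described here encode parts of the WNT pathway, from the ligand WNT11 and the receptor FZD3 to RNF43, the scaffolds AXIN1 and AXIN2, β-catenin (CTNNB1) and the TCF/LEF factors LEF1, TCF7, TCF7L1 and TCF7L2. All 10 were found by symbol among the 24960 genes of the deposited count table. They were chosen by role and by their measured values, since the choice named AXIN2, FZD3 and WNT11 as lower after hyperoside. Their differences between the groups are therefore a description, and the calls and intervals given for them describe these libraries and support nothing. RNA came from K562 cells, an established chronic myeloid leukemia (CML) line that carries the BCR::ABL1 fusion and grows in suspension. The control group had 3 libraries, and so did the hyperoside (2 mM) group. Hyperoside is a plant flavonol glycoside, and its dose was taken from the text that describes the experiment, since the labels name the treatment alone. The time from hyperoside addition to RNA extraction is not given in the sources used here, and no label states that replicates came from separate cultures. The methods state in general that experiments were repeated, without naming the sequencing, so p-values measure the spread between these libraries, which may be technical.

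In the canonical branch of the pathway, secreted WNT proteins bind frizzled receptors and the co-receptors LRP5 and LRP6. Without a ligand, a destruction complex built on AXIN and APC marks β-catenin for degradation, and with a ligand β-catenin accumulates, enters the nucleus and works with TCF/LEF factors on target genes. Some targets feed back on the pathway. AXIN2 is a widely used target that adds scaffold to the destruction complex, and RNF43 and ZNRF3 are membrane ubiquitin ligases that remove frizzled receptors. WNT signaling is known in the blood system for its part in stem and progenitor cells and, through TCF7 and LEF1, in T cell development. β-catenin has also been studied in the leukemic stem cells of CML.

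The counts on genes summed to 35613283 to 36754725 per library. Levels are given as counts, as normalized CPM (counts taken relative to the library's total after edgeR's TMM normalization), and, between genes, as the deposited FPKM, which is scaled to gene length and library total. At this depth 1 count was worth 0.0272 to 0.0284 CPM, and a count of 0 allows up to 3 counts, or 0.0817 to 0.0853 CPM. Limits and intervals of this kind cover counting error only. The labels name bone as the source of the cells. The 8 genes listed for K562 identity, among them embryonic and fetal globins, GATA1 and TAL1, were all detected in every library, and their summed FPKM was 7650.5 to 9493.5 in the control group and 5529.5 to 6689.4 in the hyperoside group. Most of the sum came from the globin genes HBE1, HBG2 and HBG1, each lower in the hyperoside libraries, and its part in the results below was not tested. In bulk RNA, fewer cells with a transcript and less transcript per cell cannot be told apart.

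Of the 10 genes, AXIN2, FZD3, WNT11 and TCF7L1 had lower CPM in every hyperoside library than in any control library. AXIN1, RNF43 and TCF7L2 had higher CPM in every hyperoside library, while the ranges of CTNNB1, LEF1 and TCF7 overlapped between the groups. Over all 15095 genes that passed the filter on low counts, the ranges did not overlap in 27.3% with hyperoside below and in 27.1% with hyperoside above. The filter kept 9 of the 10 genes. TCF7L1 did not pass it, and WNT11 passed through its control libraries only. At an adjusted p under 0.05, 4 of the 9 were called lower, namely AXIN2, TCF7, FZD3 and WNT11, and TCF7L2 alone was called higher, where the shares over all tested genes were 23.2% lower and 22.1% higher. With a fold change above 2 as well, 3 were lower and 0 higher, against 3.76% and 6.43% of all tested genes. Because these values entered the choice of the genes, nothing is read from the counts. FZD3, at 0.497 of its control level, lay just inside a fold change of 2, and TCF7, with a log2 fold change of -0.46, was the next lower gene outside it.

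**Figure D1:**
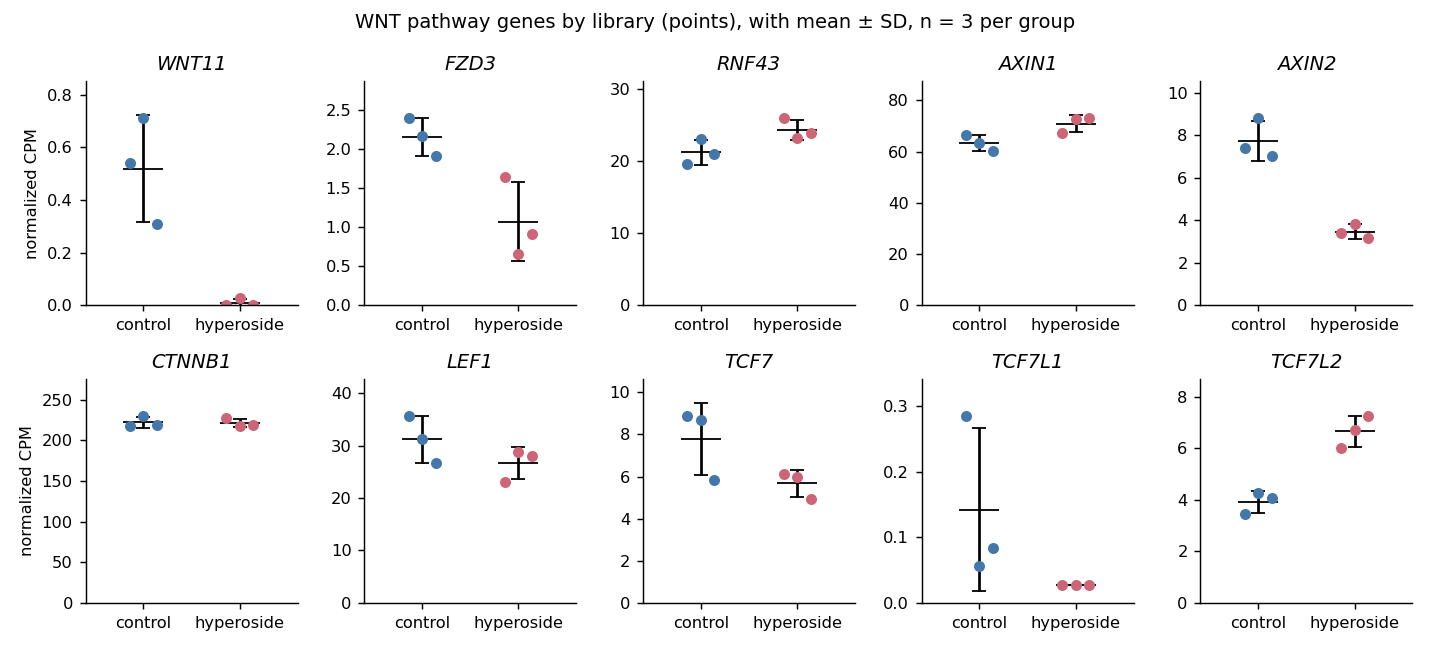
Normalized CPM of the 10 genes in each of the 6 libraries, with points for libraries and bars for the mean ± SD (n = 3 per group), each panel on its own axis from 0. The hyperoside points of AXIN2, FZD3, WNT11 and TCF7L1 lie below the control points, those of AXIN1, RNF43 and TCF7L2 lie above them, and those of CTNNB1, LEF1 and TCF7 overlap with them.

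WNT11 encodes a secreted ligand best known for signaling that does not use β-catenin, as in planar cell polarity and heart development. It had 19, 25 and 11 counts in control replicates 1, 2 and 3, and 0, 1 and 0 in hyperoside replicates 1, 2 and 3. The hyperoside libraries were thus at or under the limit that a count of 0 allows, and the groups did not overlap. The mean was 0.519 ± 0.202 CPM in control and 0.00908 ± 0.0157 CPM in hyperoside libraries (SD, n = 3 per group). Summed over the libraries, 55 counts stood against 1, a control-to-hyperoside ratio of 56.8 after scaling to normalized library totals, with an exact 95% interval of 9.78 to 2283 that covers counting error only. The interval is wide because 1 count sets the lower group. On GRCh38 in the GENCODE 29 annotation, WNT11 spans bases 76186325 to 76210736 of chromosome 11 (minus strand), and AP000785.1 on the opposite strand overlaps its exons. Whether reads were counted by strand is not given, so how reads on the stretches shared by the 2 genes were counted is not known.

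Among the ligand genes WNT11 supplied 7.31%, 12.2% and 4.91% of the summed ligand FPKM in the control libraries and at most 0.345% in the hyperoside libraries. The sum of all listed ligands was 2.54 ± 0.262 FPKM in control and 3.40 ± 0.341 FPKM in hyperoside libraries (SD, n = 3 per group), so the ligand pool was not smaller where WNT11 was lower. Of the 16 other ligand genes in the table, 5 were tested, and 2 of them rose, 1 fell and 2 did not pass the test, while 4 had no count in any library. Their median log2 fold change was 0.40, where the median of all tested genes was 0.0032. Counts of called genes here and in the roles below stand beside 22.1% higher and 23.2% lower over all tested genes. With few genes tested in each role, nothing is read from a single role's counts. WNT3, a ligand of the β-catenin branch, rose from 4.33 ± 0.759 to 6.81 ± 0.576 CPM (SD, n = 3 per group), a log2 fold change of 0.65 (standard error 0.18) with an adjusted p of 0.0069 by edgeR's quasi-likelihood method and the Benjamini-Hochberg correction. It was the most abundant ligand transcript in both groups, at 50.6% of the ligand pool in control and 62.1% in hyperoside libraries. WNT5B, a ligand mostly tied to signaling without β-catenin, rose from 1.22 ± 0.161 to 2.85 ± 0.743 CPM, a log2 fold change of 1.23 (standard error 0.30, edgeR adjusted p = 0.00266). WNT10B, a ligand of the β-catenin branch in stem cell niches, fell from 2.21 ± 0.569 to 1.18 ± 0.196 CPM, a log2 fold change of -0.91 (standard error 0.32, edgeR adjusted p = 0.0293). The WNT10B call was lost without control replicate 1 (adjusted p = 0.0950), control replicate 3 (0.0848), hyperoside replicate 2 (0.0946) or hyperoside replicate 3 (0.0566) in the same edgeR test. PORCN and WLS modify and export WNT proteins, and NOTUM, a secreted enzyme that removes their lipid, is the listed gene of this group with the highest control FPKM. Of these 3 genes 2 were tested, with a median log2 fold change of -0.44, and neither was called. NOTUM had 6.22 ± 2.08 CPM in control and 4.40 ± 0.475 CPM in hyperoside libraries (log2 fold change -0.50, edgeR adjusted p = 0.0706). Without control replicate 1 its log2 fold change was -0.20 (edgeR adjusted p = 0.462), and without control replicate 3 it was -0.69 (0.0140).

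FZD3 encodes a frizzled receptor known for its part in planar polarity and axon guidance. It had 84, 76 and 68 counts in the control libraries and 60, 24 and 33 in the hyperoside libraries. Hyperoside replicate 1 lay nearest to the control group, at 1.63 CPM against 1.90 in the lowest control library, and the other hyperoside libraries had 0.653 and 0.914 CPM. The mean was 2.15 ± 0.243 CPM in control and 1.07 ± 0.508 CPM in hyperoside libraries (SD, n = 3 per group), a log2 fold change of -1.01 (standard error 0.36). The difference rests unevenly on the libraries. The log2 fold change of FZD3 was -1.45 without hyperoside replicate 1 and -0.75 without hyperoside replicate 2. FZD3 spans bases 28494205 to 28574268 of chromosome 8 (GRCh38, plus strand), where no exon of another GENCODE 29 gene overlaps with its own.

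FZD3 was a minor frizzled in these cells. It made up 1.16%, 1.11% and 1.04% of the summed frizzled FPKM in the control libraries and 0.927%, 0.387% and 0.523% in the hyperoside libraries. FZD4 supplied 49.7% of that sum in control and 51.1% in hyperoside libraries, and FZD5 supplied 21.2% and 21.5%. The whole frizzled sum was 13.6 ± 0.474 FPKM in control and 12.5 ± 0.324 FPKM in hyperoside libraries (SD, n = 3 per group). Of 8 other frizzled genes in the table, 6 were tested, 1 fell, 0 rose and 5 did not pass the test, with a median log2 fold change of -0.13. The gene that fell was FZD2, with 5.20 ± 1.32 CPM in control and 3.29 ± 0.318 CPM in hyperoside libraries, a log2 fold change of -0.66 (standard error 0.22, edgeR adjusted p = 0.0187). The FZD2 call was lost without control replicate 1 (log2 fold change -0.44, edgeR adjusted p = 0.122), hyperoside replicate 1 (0.0607) or hyperoside replicate 2 (0.0532). FZD4, the most abundant frizzled, had 50.8 CPM in control and 46.4 CPM in hyperoside libraries, a log2 fold change of -0.13 (edgeR adjusted p = 0.206).

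**Figure D2:**
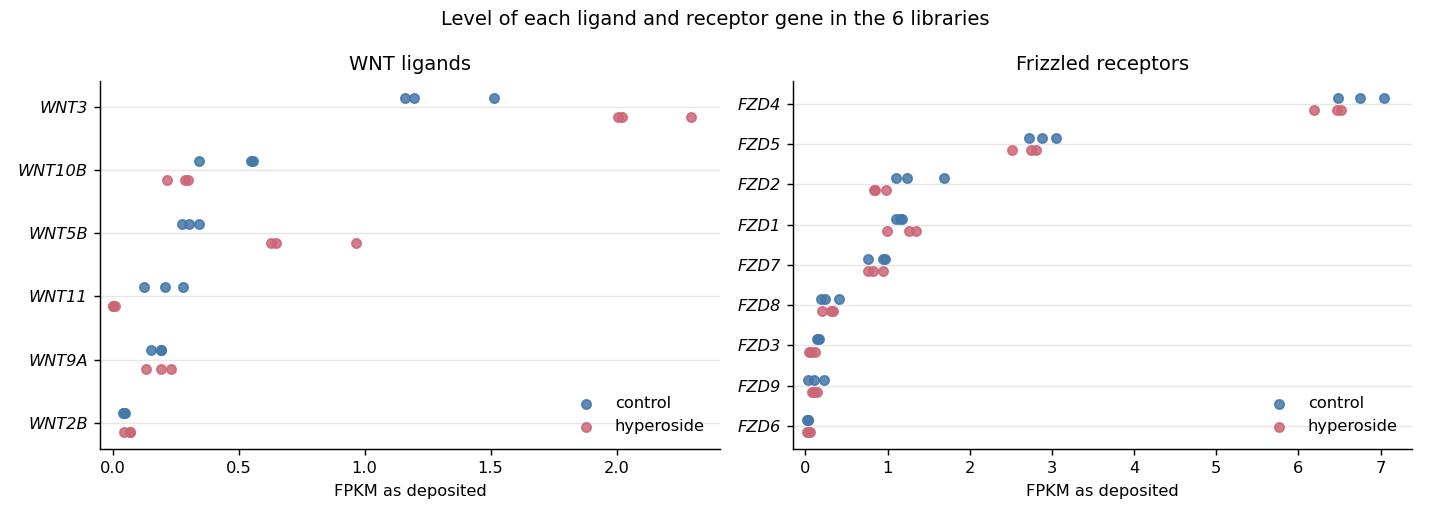
Deposited FPKM of the tested WNT ligand genes (left) and of the frizzled genes with counts (right), with 1 point for each library and the genes ordered by level. The control points of FZD3 lie between 0.136 and 0.162 FPKM, far below those of FZD4, and WNT11 lies near 0 in the hyperoside libraries while WNT3 and WNT5B lie to the right of their control points.

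Beside the frizzled receptors, WNT proteins bind several co-receptors. Of the 6 co-receptor genes listed, 5 were tested, and 2 fell, 0 rose and 3 did not pass the test, with a median log2 fold change of -0.18. PTK7, a kinase-dead receptor that acts in planar polarity and as a WNT co-receptor, fell from 26.3 ± 3.82 to 14.3 ± 0.550 CPM (SD, n = 3 per group), a log2 fold change of -0.88 (standard error 0.12, edgeR adjusted p = 7.31e-06). LRP6, a co-receptor of the β-catenin branch, fell from 36.7 ± 6.06 to 26.8 ± 1.37 CPM, a log2 fold change of -0.45 (standard error 0.11, edgeR adjusted p = 0.00312). The LRP6 call was lost in limma on the FPKM scale, with adjusted p = 0.0775 after adding 1 and 0.0746 after adding 0.1. LRP5, the co-receptor with the highest control FPKM, had 68.2 CPM in control and 64.2 CPM in hyperoside libraries (edgeR adjusted p = 0.415). KREMEN2, whose product binds DKK proteins and takes LRP6 off the surface, fell from 7.62 ± 1.87 to 2.26 ± 0.384 CPM, a log2 fold change of -1.75 (standard error 0.22, edgeR adjusted p = 4.72e-06). It was 1 of 2 tested genes among the secreted inhibitors and kremens (median log2 fold change -0.92), and the only listed gene outside the 10 that fell by a fold change above 2.

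RNF43 clears frizzled receptors from the cell surface and is itself a common target of β-catenin. It had 686, 811 and 751 counts in the control libraries and 950, 851 and 861 in the hyperoside libraries. The highest control library, at 23.04 CPM, lay just below the lowest hyperoside library, at 23.2 CPM, so the groups did not overlap but nearly touched. The mean was 21.2 ± 1.77 CPM in control and 24.3 ± 1.41 CPM in hyperoside libraries (SD, n = 3 per group), a log2 fold change of 0.20 (standard error 0.10). RNF43 was thus slightly higher, though not called, while AXIN2, which responds to the same transcription factors in many cell types, was lower. On chromosome 17 from 58352500 to 58417595, on the minus strand of GRCh38, its exons overlap SUPT4H1 and AC004687.2 on the same strand and TSPOAP1-AS1 on the opposite strand, so its counts could hold reads of these genes.

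Of the 6 other genes listed for R-spondins and receptor turnover, 3 were tested and 1 rose, with a median log2 fold change of 0.07. ZNRF3, the close relative of RNF43, had 4.43 CPM in control and 4.385 CPM in hyperoside libraries (log2 fold change -0.01, edgeR adjusted p = 0.963). The R-spondin receptor LGR4, with the highest control FPKM of the list, had 34.7 and 36.5 CPM (edgeR adjusted p = 0.619). LGR6, a related receptor, rose from 16, 6 and 3 counts in the control libraries to 21, 36 and 34 in the hyperoside libraries, a log2 fold change of 1.80 (standard error 0.60, edgeR adjusted p = 0.0211). The LGR6 call was lost in edgeR without control replicate 2 (adjusted p = 0.0789), control replicate 3 (0.0916), hyperoside replicate 2 (0.0835) or hyperoside replicate 3 (0.0769), and in limma on log2(FPKM + 1) (0.0588).

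AXIN1 and AXIN2 encode scaffolds that hold the destruction complex together, and AXIN1 is made in most cells whether or not the pathway is active. AXIN2 had 260, 310 and 251 counts in the control libraries and 125, 141 and 114 in the hyperoside libraries. The groups stood well apart, with 7.02 CPM in the lowest control library and 3.84 in the highest hyperoside library. The mean of AXIN2 was 7.74 ± 0.940 CPM in control and 3.47 ± 0.346 CPM in hyperoside libraries (SD, n = 3 per group), 44.8% of the control mean and a log2 fold change of -1.16 (standard error 0.18). AXIN1 had 2334, 2236 and 2152 counts in the control libraries and 2465, 2671 and 2636 in the hyperoside libraries. The AXIN1 groups lay close together, with 66.4 CPM in the highest control library and 67.2 in the lowest hyperoside library. Its mean was 63.4 ± 3.08 CPM in control and 71.0 ± 3.29 CPM in hyperoside libraries, a log2 fold change of 0.16 (standard error 0.08).

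Per length, AXIN1 was the main AXIN transcript in all 6 libraries. AXIN2 supplied 10.1%, 12.3% and 10.5% of the summed AXIN FPKM in the control libraries and 4.86%, 5.05% and 4.18% in the hyperoside libraries. The sum of both was 12.9 ± 0.387 FPKM in control and 13.96 ± 0.545 FPKM in hyperoside libraries (SD, n = 3 per group), so total AXIN transcript was not lower where AXIN2 was. AXIN1 spans bases 287440 to 352673 of chromosome 16 (GRCh38, minus strand), with no exon of another gene over its own. AXIN2 spans bases 65528563 to 65561647 of chromosome 17 (minus strand), and AC004805.1 on the same strand overlaps its exons.

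Of the 19 other genes of the destruction complex and its regulators, 18 were tested, and 6 rose, 3 fell and 9 did not pass the test, with a median log2 fold change of 0.06. APC, the large scaffold that holds β-catenin in the complex, rose from 34.6 ± 5.02 to 63.1 ± 5.99 CPM (SD, n = 3 per group), a log2 fold change of 0.87 (standard error 0.10, edgeR adjusted p = 3.2e-06). BTRC, the ubiquitin ligase subunit that recognizes phosphorylated β-catenin, rose by a log2 fold change of 0.56 (edgeR adjusted p = 1.58e-04), and the kinase gene CSNK1D rose by 0.35 (edgeR adjusted p = 4.74e-04). The kinase gene CSNK1G2 fell, with a log2 fold change of -0.44 (edgeR adjusted p = 4.43e-04). CSNK1A1, whose kinase primes β-catenin, and FBXW11, the paralog of BTRC, had log2 fold changes of -0.19 and -0.22 (edgeR adjusted p = 0.0276 and 0.0293). The last 2 calls were weak. They were lost in limma on both FPKM scales, in edgeR with upper quartile scaling (adjusted p = 0.0758 for CSNK1A1 and 0.0687 for FBXW11) and without any 1 library other than control replicate 1, where the adjusted p lay between 0.0733 and 0.0950 for CSNK1A1 and between 0.0599 and 0.111 for FBXW11. Upstream of the complex, 1 of 3 dishevelled genes (median log2 fold change 0.10) passed the test, with DVL2 at 56.1 CPM in control and 65.2 CPM in hyperoside libraries (log2 fold change 0.22, edgeR adjusted p = 0.0429). Without hyperoside replicate 3, the DVL2 adjusted p in edgeR was 0.187, and it was 0.112, 0.134 and 0.0765 without control replicate 2, control replicate 3 and hyperoside replicate 1. DVL1, with the highest control FPKM, had 121.7 CPM in control and 109.5 CPM in hyperoside libraries (edgeR adjusted p = 0.0999).

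CTNNB1 encodes β-catenin, the protein the pathway stabilizes, which also joins cadherins at the membrane. It had 7659, 8088 and 7808 counts in the control libraries and 8338, 8011 and 7917 in the hyperoside libraries, and the groups overlapped. The mean was 222.03 ± 6.70 CPM in control and 221.51 ± 4.94 CPM in hyperoside libraries (SD, n = 3 per group), a log2 fold change of -0.0034 (standard error 0.07). Its sign was positive with upper quartile scaling, at 0.04, and on the FPKM scale, at 0.05, so no direction is given. RNA levels do not measure the stability of β-catenin protein, which the pathway controls. CTNNB1 spans bases 41194741 to 41260096 of chromosome 3 (GRCh38, plus strand), with no exon of another gene over its own.

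The TCF/LEF factors bind DNA at short sites rich in A and T, act as repressors with TLE proteins, and turn genes on with β-catenin. RefSeq promoter windows of GRCh38.p14, from 250 bases before to 50 bases after a gene's start, were matched for 7 of the 10 genes, in 11 windows. AXIN2, FZD3 and WNT11 had no window in the source used, so their promoters were not searched. The 11 windows were searched on both strands for the TCF/LEF motif as AACAAAG, in its form ATCAAAG, in its form TACAAAG and in its form TTCAAAG. The forms differ only in their opening letters, so that no more than 1 can match at one place. A match was found in 2 of the 11 windows, 1 of TCF7 and 1 of TCF7L2, against 13.8% of the 35116 promoter windows in the table. The stretches around these matches are shown, with the matched letters in capitals and the plus strand read 5′ to 3′.
TCF7, chr5:134123538-134123604: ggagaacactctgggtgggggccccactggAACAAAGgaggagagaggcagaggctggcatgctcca
TCF7L2, chr10:113126470-113126536: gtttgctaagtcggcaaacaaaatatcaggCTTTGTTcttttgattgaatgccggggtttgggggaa
The match lies 50 to 44 bases before the start in TCF7, and 133 to 127 bases before it, on the other strand, in TCF7L2. TCF7 has 2 starts in the table and TCF7L2 has 3, of which 1 each holds a match, and the counts pool all starts of a gene. A match in letters is a description and shows no binding.

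TCF7L2, known for its part in the gut epithelium and in insulin secretion, was the TCF/LEF gene with higher values after hyperoside. It had 121, 150 and 146 counts in the control libraries and 221, 246 and 262 in the hyperoside libraries. The groups stood apart, with 4.26 CPM in the highest control library and 6.02 in the lowest hyperoside library. The mean was 3.93 ± 0.432 CPM in control and 6.66 ± 0.617 CPM in hyperoside libraries (SD, n = 3 per group), a log2 fold change of 0.76 (standard error 0.18). TCF7, which encodes TCF-1, had 312, 305 and 208 counts in the control libraries and 224, 219 and 179 in the hyperoside libraries. Control replicate 3, at 5.82 CPM, lay within the hyperoside range, and control replicates 1 and 2, at 8.87 and 8.66 CPM, lay above it. The TCF7 mean was 7.79 ± 1.70 CPM in control and 5.67 ± 0.626 CPM in hyperoside libraries, a log2 fold change of -0.46 (standard error 0.18). Left-out libraries moved it between -0.35, without control replicate 1, and -0.63, without control replicate 3.

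LEF1, the factor named for lymphoid enhancers, had 1252, 1099 and 955 counts in the control libraries and 848, 1055 and 1009 in the hyperoside libraries. The groups overlapped, since control replicate 3, at 26.7 CPM, lay below hyperoside replicate 2, at 28.7 CPM. The mean was 31.2 ± 4.44 CPM in control and 26.6 ± 3.04 CPM in hyperoside libraries (SD, n = 3 per group), a log2 fold change of -0.23 (standard error 0.12). It was -0.12 without control replicate 1, -0.14 without hyperoside replicate 1 and -0.33 without control replicate 3. TCF7L1, mostly a repressor in stem cells, was near the detection limit, with 10, 2 and 3 counts in the control libraries and 1 in each hyperoside library. The summed counts, 15 against 3, gave a control-to-hyperoside ratio of 5.16 (exact 95% interval 1.46 to 27.8, counting error only). Control replicate 1 carried that ratio, and without it the ratio was 2.57 (0.501 to 16.6).

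On GRCh38, LEF1 spans bases 108047545 to 108168956 of chromosome 4 (minus strand), TCF7 bases 134114711 to 134151865 of chromosome 5, TCF7L1 bases 85133410 to 85310388 of chromosome 2 and TCF7L2 bases 112950250 to 113167678 of chromosome 10, with the TCF genes on the plus strand. Exons of LEF1, TCF7 and TCF7L2 overlap LEF1-AS1, SKP1 and AL158212.2 on the opposite strand. With no stated use of strand, how reads on the shared stretches were counted is not known. LEF1-AS1 had 2 to 25 counts per library in the table, few beside the counts of LEF1. SKP1 had many more counts than TCF7, with 8899 to 9688 in the control libraries and 7639 to 8206 in the hyperoside libraries. It fell as TCF7 did, with a log2 fold change of -0.28 (edgeR adjusted p = 0.00354). The part of SKP1 reads in the TCF7 counts was not tested.

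Per length, LEF1 was the main factor of the family in every library. LEF1 supplied 87.6%, 85.6% and 85.7% of the summed TCF/LEF FPKM in the control libraries and 79.9%, 82.1% and 81.4% in the hyperoside libraries. TCF7L2 supplied 5.94%, 8.19% and 9.18% in the control libraries and 14.6%, 13.4% and 14.8% in the hyperoside libraries. Neither gene's shares overlapped between the groups. TCF7 supplied 5.47% ± 0.655 in control and 4.48% ± 0.858 in hyperoside libraries, with overlap. The family's summed FPKM overlapped as well, at 9.54 ± 1.03 in control and 8.96 ± 0.860 in hyperoside libraries (SD, n = 3 per group). TCF7L2 thus took a larger share of a family total that overlapped between the groups. By FPKM, TCF7L2 ranked above TCF7 in both groups and above AXIN2 in the hyperoside group only. Its order against TCF7 depends on length, since the FPKM values imply 14537 bases for TCF7 and 5296 for TCF7L2. By mean CPM, TCF7 stood above TCF7L2 in control libraries (7.79 against 3.93) and below it in hyperoside libraries (5.67 against 6.66). LEF1 and TCF7 are also T cell genes, and listed T cell markers were checked beside them. Of the 6 in the table, CD3D and CD3G were higher in every hyperoside library, CD3E overlapped, CD2 had at most 2 counts, CD5 and BCL11B had no count in any library, and the summed FPKM of the list was 35.2 to 42.6 in the control group and 48.1 to 54.1 in the hyperoside group, nearly all of it CD3D. Its part in the TCF/LEF values was not tested.

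**Figure D3:**
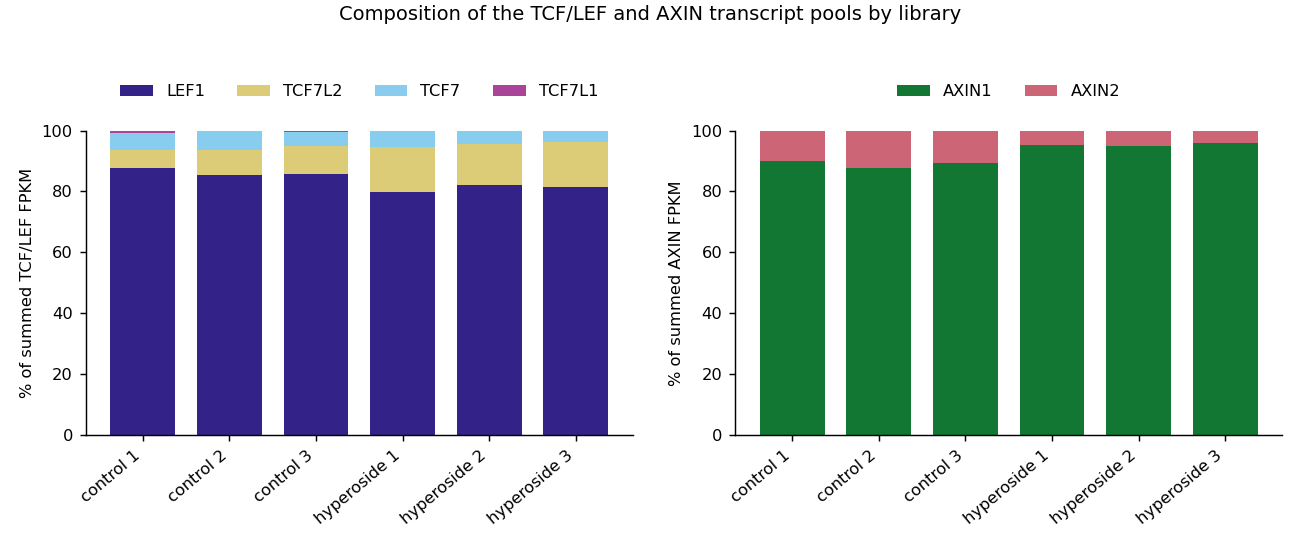
Share of each TCF/LEF gene (left) and each AXIN gene (right) in the summed deposited FPKM of its family, in percent, with 1 stacked bar for each library. LEF1 holds 85.6% to 87.6% of the control bars and 79.9% to 82.1% of the hyperoside bars, and AXIN2 holds 10.1% to 12.3% of the control bars and 4.18% to 5.05% of the hyperoside bars.

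Of the 16 other listed co-factors of β-catenin and the TCF/LEF factors, 15 were tested, and 6 rose, 4 fell and 5 did not pass the test, with a median log2 fold change of 0.06. The histone acetyltransferase genes CREBBP and EP300, whose products are recruited by β-catenin, rose by log2 fold changes of 0.96 (standard error 0.10, edgeR adjusted p = 6.28e-07) and 0.75 (standard error 0.08, edgeR adjusted p = 5.86e-07). The β-catenin co-activators BCL9L and BCL9 went in opposite directions, with log2 fold changes of 0.49 (edgeR adjusted p = 1.4e-04) and -0.45 (edgeR adjusted p = 0.00244). The co-repressor genes TLE2 and TLE4 fell, with log2 fold changes of -0.77 (edgeR adjusted p = 3.49e-04) and -0.54 (edgeR adjusted p = 0.0167). TLE3 of the same list went the other way, from 53.9 CPM in control to 65.2 CPM in hyperoside libraries (log2 fold change 0.27, edgeR adjusted p = 0.0224). The TLE4 call was lost without control replicate 1 (edgeR adjusted p = 0.0685) and in limma on log2(FPKM + 0.1) (0.0537). TLE5, the short TLE gene with the highest control FPKM of the list, had 240.2 CPM in control and 214.6 CPM in hyperoside libraries (edgeR adjusted p = 0.0623, DESeq2 adjusted p = 0.0457).

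Ordered by FPKM in the control group, the 10 genes ran from CTNNB1 at 50.9 through AXIN1 at 11.5, LEF1 at 8.24, RNF43 at 2.78, AXIN2 at 1.41, TCF7L2 at 0.730, TCF7 at 0.525, WNT11 at 0.203 and FZD3 at 0.150 to TCF7L1 at 0.0460. In that order the ranges of WNT11 and FZD3 overlapped, and those of all other neighbours did not. In the hyperoside group the first 4 places were held by the same genes, and TCF7L2, at 1.28 FPKM, stood above AXIN2, at 0.656 FPKM. WNT11 went from the eighth place to the last, at 0.00368 FPKM, where its range overlapped that of TCF7L1, at 0.00932 FPKM. AXIN2, FZD3 and WNT11, the genes chosen as lower, thus stood below CTNNB1, AXIN1, LEF1 and RNF43 in the order of both groups.

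AXIN2, RNF43, LEF1 and TCF7 are themselves listed as common targets of the pathway, and they did not move as 1 block. Their log2 fold changes were -1.16, 0.20, -0.23 and -0.46, and those of RNF43 and LEF1 were not called. Of the 13 other targets in the table, 7 were tested, and 2 fell, 1 rose and 4 did not pass the test, with a median log2 fold change of -0.26. CD44, a cell adhesion receptor, rose by a log2 fold change of 0.77 (standard error 0.08, edgeR adjusted p = 8.85e-07). PPARD, a nuclear receptor for fatty acids, and BIRC5, which encodes survivin, fell, with log2 fold changes of -0.54 (edgeR adjusted p = 0.00236) and -0.26 (edgeR adjusted p = 0.0137). The BIRC5 call was lost without hyperoside replicate 1 (edgeR adjusted p = 0.102). In the planar polarity branch, the setting in which FZD3 and WNT11 are best known, 12 of 16 genes were tested, and 1 rose, 1 fell and 10 did not pass the test, with a median log2 fold change of 0.06. VANGL1, a membrane protein of that branch, rose by a log2 fold change of 0.35 (edgeR adjusted p = 0.00957), and RAC1, a small GTPase, fell, with a log2 fold change of -0.23 (edgeR adjusted p = 0.00948). These calls were each lost without 1 library, that of VANGL1 without hyperoside replicate 2 (edgeR adjusted p = 0.0783) and that of RAC1 without hyperoside replicate 1 (0.0526). RHOA, with the highest control FPKM of the branch, had 439.2 CPM in control and 391.97 CPM in hyperoside libraries (edgeR adjusted p = 0.0527, DESeq2 adjusted p = 0.0332).

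Over all lists, 112 WNT pathway genes other than the 10 were in the table and 76 were tested. Of these 15 fell (19.7%), 18 rose (23.7%) and 43 did not pass the test, close to the 23.2% lower and 22.1% higher of all tested genes, and their median log2 fold change was -0.01. With a fold change above 2 only KREMEN2 was lower, and WNT5B and LGR6 were higher. The deposited KEGG annotation places all 10 genes in its WNT signaling pathway, with 146 others, of which 105 were tested. Of these 23 fell (21.9%) and 25 rose (23.8%), with a median log2 fold change of -0.02, and 0 were lower and 3 higher by a fold change above 2. The 3 were WNT5B, LGR6 and FOSL1, an AP-1 gene named after its values were seen, which rose from 8.20 to 27.5 CPM (log2 fold change 1.75). With all 6 libraries, the rest of the pathway thus showed called genes in both directions at shares near those of the whole table. Without hyperoside replicate 1, 9 listed genes and 14 KEGG genes were called lower. Over all genes 2858 were called lower in that setting, against 3508 with all libraries. The counts of lower WNT genes thus shrank by a larger part than that of the whole table, and the cause was not tested.

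**Figure D4:**
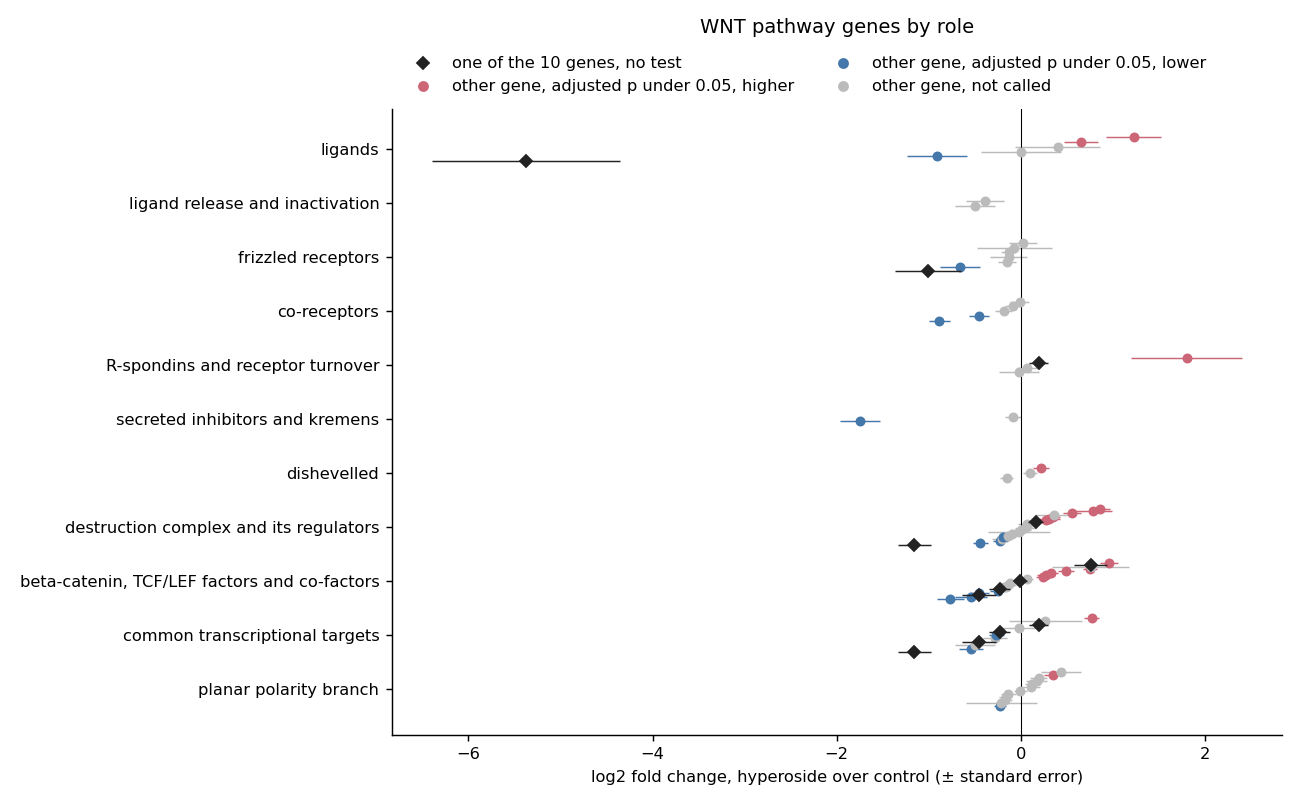
Log2 fold change of hyperoside over control with its standard error (bars) for each tested gene of the WNT pathway lists, 1 row for each role. Diamonds mark the 9 of the 10 described genes that passed the filter, drawn without their calls, with AXIN2, RNF43, LEF1 and TCF7 again in the row of targets. Circles mark the other genes, colored where the adjusted p was under 0.05. The circles lie on both sides of 0 in most rows, and the diamond of WNT11, far to the left, is a fitted value that depends on the prior count and is no bound.

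The genes whose pattern over the 6 libraries was most like that of AXIN2, FZD3 and WNT11 were found by the Euclidean distance of log2 CPM, each centred on its control mean, among tested genes with a mean of at least 10 counts. The nearest to AXIN2 were LOC730101, an uncharacterized locus, TMEM52 and VWDE, at distances of 0.162, 0.205 and 0.244. VWDE stood at 186.2 CPM in control and 85.2 CPM in hyperoside libraries, much above AXIN2 in level. The nearest to FZD3 were LOC107984035, LOC105371750 and LOC105374187, loci without a gene name at distances of 0.296 to 0.374, with 0.801 to 1.23 CPM in the control group. WNT11 had no close neighbour among the genes searched. Its own mean was under 10 counts, so genes with counts as low as its own were left out of the search. SDC2, a syndecan, and LOC105370363 lay at 1.09 and 1.10, and SDC2 had 2.52 CPM in control and 0.320 CPM in hyperoside libraries. Since the libraries form 2 groups, such likeness mostly restates the difference between them and low counts.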

How the data were processed

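Total RNA of K562 cells was extracted with TRIzol, made into libraries with a VAHTS Universal V6 kit and sequenced on an Illumina HiSeq system, per the labels and the paper's methods. The submitters' processing notes name fastp, HISAT2, HTSeq and hg38, while versions, the annotation and the use of strand are not given in the sources used here. The authors deposited raw read counts per gene and FPKM values, which scale those counts to gene length and library total, with no column of per-sample values left unused. Groups came from the sample labels.

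The count analysis used edgeR 4.0.16 under R 4.3.3. After filterByExpr (minimum count 10, minimum total 15) and TMM normalization, hyperoside and control libraries were compared by the quasi-likelihood method without covariates, and p-values of the 15095 tested genes were adjusted after Benjamini and Hochberg, with a threshold of 0.05. A fold change above 2 served as a stricter rule. The paper names the DESeq package. DESeq2 1.42.0 and limma 3.58.1 (log2 of FPKM plus 1 or 0.1) served as alternatives, beside other normalizations and filters, leaving out single libraries, and a block on the replicate number. Log2 CPM for likeness used a prior count of 2. Gene positions came from GENCODE 29 on GRCh38 and promoter sequences from RefSeq GRCh38.p14. Tested on simulated data of this comparison, edgeR recovered 200 of 200 changed genes among 14906 and made 9 false calls. The changes were planted only in genes with higher counts and with large fold changes, and all genes shared a common dispersion. The simulation therefore does not cover genes with few counts, such as WNT11, or small fold changes.

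The 10 genes, the lists and the tests were chosen with earlier results of these data known. Besides the 10 genes, the text names in each list every gene called with a fold change above 2, otherwise up to 3 called genes in each direction with the smallest adjusted p, the gene with the highest control FPKM, and the 3 genes nearest in pattern to AXIN2, FZD3 and WNT11. A gene that this rule takes is not reported here. ZNRF3 was added as the relative of RNF43, FZD5 for its share of the frizzled sum, and HBE1, HBG1, HBG2, GATA1, TAL1, CD2, CD3D, CD3E, CD3G, CD5 and BCL11B as markers, all after their values were seen. The marker lists were 8 genes for K562 identity, 8 for T cells and 8 for epithelial and stromal cells. Of the last, 6 were in the table, with a summed FPKM of 49.9 to 52.0 in the control group and 50.4 to 54.0 in the hyperoside group, nearly all of it EPCAM, and PDGFRA at 0 in every library. Annotation columns other than symbols, descriptions and KEGG pathways were not used.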

Additional observations from a re-analysis of the deposited data

How the results depend on the processing

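The results were recomputed under 14 alternatives. With each library left out in turn, 2858 to 3618 genes were called lower and 2700 to 3549 higher. For the listed WNT genes outside the 10, left-out libraries gave 9 to 15 lower and 12 to 19 higher, and for the KEGG genes 14 to 21 lower and 20 to 26 higher. The lowest counts of lower genes, 9 and 14, came without hyperoside replicate 1, and the cause was not tested. Replicate numbers did not pair the libraries, with correlations of deviations of -0.081, -0.0327 and -0.0342 for numbers 1, 2 and 3. With the replicate block, 3103 genes were called lower and 3026 higher, with 12 and 16 of the listed WNT genes and 18 and 24 of the KEGG genes.

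Of the 10 genes, AXIN2 and TCF7L2 were called in all 14 alternatives, WNT11 in the 13 that tested it, FZD3 in 8, AXIN1 in 4, TCF7 in 3, LEF1 in 1, and CTNNB1 and RNF43 in 0, which describes the values that chose them. Adding 1 to low FPKM values shrank the log2 fold changes of AXIN2 to -0.54, TCF7L2 to 0.40, TCF7 to -0.12, FZD3 to -0.09 and WNT11, the most, from -5.37 to -0.26. Of the 10, CTNNB1 alone took both signs, from -0.02 to 0.05. Of 33 other named genes 14 changed call in at least 1 alternative, and LGR4, not called, changed sign without control replicate 1, from 0.07 to -0.03. Depth limits WNT11 and TCF7L1, at 0 or 1 count in each hyperoside library.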
